A study of Mus musculus with 6 samples.

Results

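Transcripts of 10 Kruppel-like factors were followed in sorted haematopoietic stem cells: Klf2, Klf3, Klf4, Klf5, Klf6, Klf7, Klf11, Klf12, Klf13 and Klf16. They are the rows of the deposited table that bear these symbols, 10 of 52183 genes, and leave out the family members known best as erythroid, glucocorticoid and TGF-beta targets. The cells came from the bone marrow of female mice aged 4 months, in 6 libraries. Of these 3 are controls by their label and 3 carry TSPKO in their titles, taken here as the label Thbs1 knockout. The labels name no other allele, strain or treatment, and do not say which part of Thbs1 was deleted, in which cells, or by which sorting gate the stem cells were taken. Whether each library came from its own animal is not stated either, so a p-value here covers the spread between the libraries at hand, possibly a technical one. The comparison asks how stem cell transcripts differ when Thbs1, which encodes the secreted matrix protein thrombospondin 1, is deleted.

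Kruppel-like factors are transcription factors that bind GC-rich and CACCC sequences through zinc fingers at their carboxy-terminal end, and they share these sites with the related SP factors. Outside the zinc fingers the proteins differ. Klf2, Klf4, Klf5, Klf6 and Klf7 mostly act as activators, Klf3 and Klf12 repress through the CtBP corepressors, and Klf11, Klf13 and Klf16 recruit the Sin3 corepressor. In blood the family is known for keeping T cells quiescent (Klf2), for monocyte differentiation (Klf4) and for red cell genes (Klf1, and Klf3 as its opponent at shared sites).

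Levels are FPKM (fragments for each kilobase of exon and 1000000 mapped fragments), so that genes of different length can be compared. The read depth recovered from the values of short genes lay between 22730000 and 30890000 reads per library. Thbs1 itself was read at 4.12, 13.82 and 2.33 FPKM in controls 1 to 3, and the libraries labelled knockout gave 10.82, 8.50 and 7.68 FPKM (limma adjusted p = 0.503). It was not lower in the libraries labelled knockout. Without control 2, its highest control, it was higher there (limma adjusted p = 0.0343). The other fits with a library left out gave no call (adjusted p from 0.542 to 0.851). Its level thus does not bear out the label, and with the deleted part unknown it cannot settle whether the label holds. The directions below rest on what the labels say. All 12 stem cell markers examined, among them Procr, Slamf1, Kit and Mecom, were measured at 1 FPKM or more in at least 3 libraries. By the adjusted test 0 of these rose and 1 fell (over all tested genes 0.566% and 0.996%). An unadjusted limma p below 0.05 was reached by 5 of the 12, and by 16.4% of all tested genes. In 6 of the 12 the groups did not overlap, as in 22.8% of all tested genes. Every library labelled knockout lay above every control for 3 of them, among them Procr. The other 3, among them Slamf1 and Ly6a, lay below. The marker that fell was Ly6a, which encodes the sorting antigen Sca-1. It went from 107.01, 118.76 and 118.73 FPKM in controls to 89.16, 73.94 and 67.56 FPKM (limma log2 change -0.58, adjusted p = 0.0286). The call on Ly6a was lost with no filter (0.21), without the variance trend (0.0932) and in 4 of 6 fits on 5 libraries, all but those that dropped control 1 or the library labelled knockout 1 (adjusted p up to 0.104). Among the markers of other cells, several defining genes were at or near 0: Ly6g (neutrophils), Ncr1 (natural killer cells) and Adipoq (stromal fat lineage) were listed at 0 in every library, and Pax5 (B cells), Cd3e (T cells), Cdh5 (endothelium) and Csf1r (monocytes) reached at most 0.01, 0.08, 0.16 and 0.33 FPKM. Other genes of the same lists were well measured, with control means of 367 FPKM for Lyz2 and 11.7 FPKM for Cd68 (monocyte list), 83.0 for Prtn3 (neutrophil list), 28.1 for Cd79b (B cell list), 5.26 for Lck (T cell list), and 41.1 for Tie1 and 10.6 for Pecam1 (endothelial list). In bulk samples such as these, fewer cells of a type and less RNA per cell cannot be told apart.

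The promoter sequences of 4 members are shown, chosen by the expression results of these members. They are those of Klf11, the member called, and Klf13, its Sin3-binding relative, lower in the libraries labelled knockout without passing the test. The others are those of Klf6, abundant and close to constant, and Klf2, read at a low level. A link between these sequences and the levels was not tested. RefSeq windows from 250 bases before to 50 bases after a start site (GRCm38.p6) were found for 8 of the 10 members. The printed stretch ends before the first exon base in either RefSeq or GENCODE. Capitals mark, on both strands, the GC box GGGCGG, the CACCC box CACCC, the CCAAT box CCAAT, the E-box CACGTG and the MEF2 site. The stretches are chr12:24651121-24651273 on the plus strand for Klf11, chr7:63938916-63939165 on the minus strand for Klf13, chr13:5861239-5861481 on the plus strand for Klf6 and chr8:72318812-72319032 on the plus strand for Klf2, each written 5′ to 3′.
Klf11: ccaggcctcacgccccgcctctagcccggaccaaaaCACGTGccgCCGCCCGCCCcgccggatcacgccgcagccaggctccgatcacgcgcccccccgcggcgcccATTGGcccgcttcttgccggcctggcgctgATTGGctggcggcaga
Klf13: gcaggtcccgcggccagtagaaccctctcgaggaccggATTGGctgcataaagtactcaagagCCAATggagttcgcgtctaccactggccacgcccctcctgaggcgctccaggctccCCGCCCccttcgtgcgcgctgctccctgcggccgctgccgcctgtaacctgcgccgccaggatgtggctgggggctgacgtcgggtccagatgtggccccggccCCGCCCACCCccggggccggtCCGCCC
Klf6: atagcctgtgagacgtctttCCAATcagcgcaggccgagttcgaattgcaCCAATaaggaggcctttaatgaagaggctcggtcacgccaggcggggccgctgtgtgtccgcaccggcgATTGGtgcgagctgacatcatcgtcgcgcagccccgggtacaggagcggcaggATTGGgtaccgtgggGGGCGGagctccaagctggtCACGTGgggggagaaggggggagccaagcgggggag
Klf2: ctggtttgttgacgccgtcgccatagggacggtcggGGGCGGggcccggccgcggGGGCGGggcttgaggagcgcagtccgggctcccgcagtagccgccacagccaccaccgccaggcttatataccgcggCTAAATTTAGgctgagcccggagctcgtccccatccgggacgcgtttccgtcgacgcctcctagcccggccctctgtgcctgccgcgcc

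A GC box, a sequence to which SP and Kruppel-like factors themselves bind, stood in 7 of the 8 windows, where 35.7% of 32851 mouse promoter windows of 300 bases hold one. The Klf11 window held 4 matches, the Klf13 window 3, the Klf2 window 2 and the Klf6 window 1. In Klf11 a pair of GC box matches overlaps, and in Klf13 a GC box overlaps the CACCC box. CACCC boxes were found in 5 of 8 windows (57.5% of all windows) and were not found in Klf4, Klf6 or Klf11. The CCAAT box, the site of NF-Y, was found in 3 of 8 windows against 37.4% of all: 4 matches in Klf6 and 2 each in Klf11 and Klf13. The E-box CACGTG, which MYC with MAX and several other factors bind, was found in Klf4, Klf6 and Klf11, 3 of 8 windows against 7.15% of all. The MEF2 site, the element through which MEF2 factors switch on Klf2 in endothelium, was found in the Klf2 window alone of the 8, and in 3.19% of all windows. The core of a heat shock element, TTCNNGAA, was found in 0 of 8 windows (8.52% of all). The Klf12 window, which held no GC box, lies inside its minus-strand gene: its RefSeq start site is 100149796, and the GENCODE gene starts at 100284679. That of Klf7 does too, at 64121389 against 64122282. Neither window thus covers the outermost start of its gene. GC content of the 8 windows ran from 45.7% in Klf12 to 77.7% in Klf11, and matches to GC-rich motifs move with it. These matches are letters in a window and were not tested for binding.

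In the control stem cells the 10 factors spanned a range from about 12 to 0.1 FPKM. Klf6 stood highest (11.99 ± 0.315 FPKM, SD, n = 3 here and below), followed by Klf11 (10.05 ± 0.932), Klf13 (7.89 ± 0.598), Klf16 (6.28 ± 1.60), Klf3 (5.05 ± 0.447), Klf12 (4.62 ± 1.15), Klf5 (1.29 ± 0.371), Klf7 (0.73 ± 0.139), Klf2 (0.70 ± 0.195) and Klf4 (0.097 ± 0.0306). Control libraries of neighbours in this order did not overlap between Klf6 and Klf11, Klf11 and Klf13, Klf12 and Klf5, Klf5 and Klf7, or Klf2 and Klf4. They overlapped between Klf13 and Klf16, Klf16 and Klf3, Klf3 and Klf12, and Klf7 and Klf2, whose order is therefore within their spread. The control mean of Klf6 was above that of 59.1% of the 12555 genes tested, that of Klf11 above 54.0% and that of Klf5 above 5.50%. Of the 10 members, 7 reached 1 FPKM in at least 3 libraries and were tested. Klf2, Klf4 and Klf7 did not, and are given by their levels.

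**Figure D1:**
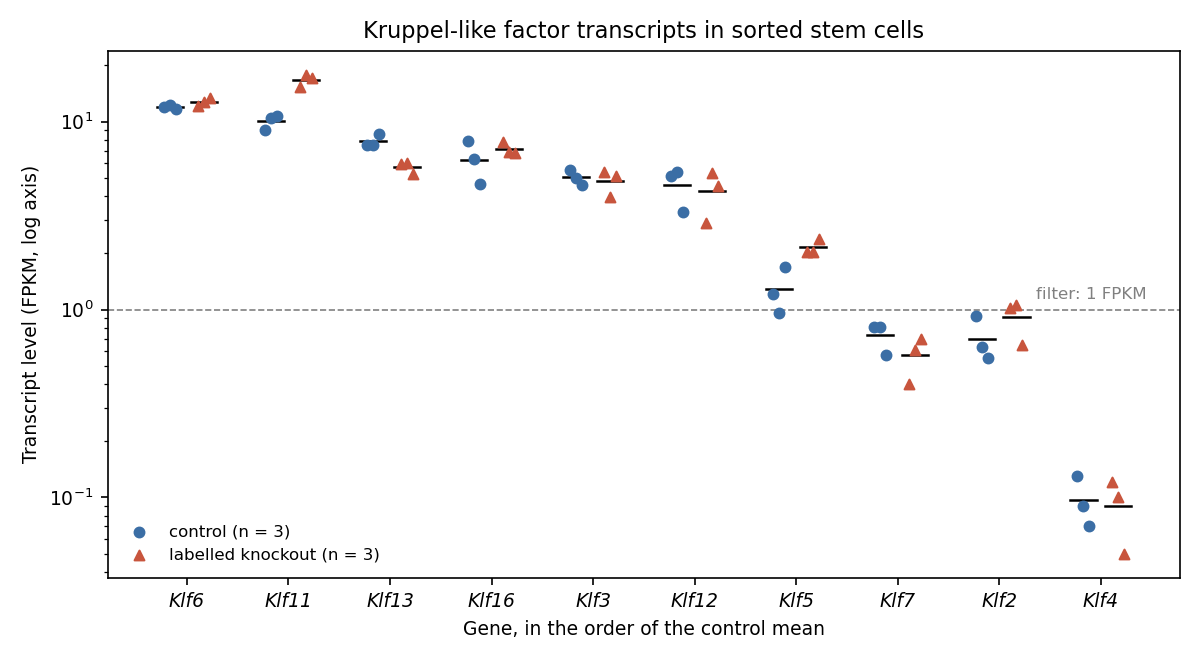
FPKM (log axis) of the 10 Kruppel-like factors, ordered by the control mean; circles are the 3 control libraries, triangles the 3 libraries labelled knockout, bars the group means, and the dashed line the 1 FPKM used as filter. Klf11 in the libraries labelled knockout (15.30 to 17.79 FPKM) lies above all control libraries (8.99 to 10.73 FPKM); Klf2 lies around the filter, and Klf7 and Klf4 lie below it.

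The order differed in the libraries labelled knockout, where Klf11 (16.71 ± 1.28 FPKM) stood above Klf6 (12.74 ± 0.588), and Klf16 (7.16 ± 0.530) above Klf13 (5.74 ± 0.414). In both pairs the libraries labelled knockout did not overlap. The controls of Klf13 and Klf16 did overlap, and control 1 already had Klf16 (7.87 FPKM) above Klf13 (7.54 FPKM), so that pair had no settled order in controls. The ratio of Klf11 to Klf6 FPKM was 0.749, 0.849 and 0.919 in control libraries 1 to 3 against 1.26, 1.39 and 1.28 in the libraries labelled knockout. Klf6 was thus the higher of the pair in every control and Klf11 in every library labelled knockout (exact two-sided permutation p = 0.1, the smallest that 3 against 3 allows). With the groups of Klf11 apart and Klf6 close to constant, the ratio had to separate, so this p adds no support beyond Klf11 itself. Summed over the 10 members, levels came to 50.17, 49.48 and 46.47 FPKM in the controls and 52.97, 56.63 and 55.83 FPKM in the libraries labelled knockout. Klf11 made up 20.7% ± 2.61 of this sum in controls and 30.3% ± 1.28 in the libraries labelled knockout. Without Klf11 the sums overlapped, at 35.74 to 41.18 FPKM in controls and 37.67 to 38.84 FPKM in the libraries labelled knockout.

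Klf11 was the only member called. The gene (ENSMUSG00000020653, chromosome 12, 24651274 to 24662789, plus strand, GRCm38) encodes a Sin3-recruiting factor of the TGF-beta-inducible family to which Klf10 also belongs. Controls 1 to 3 gave 8.99, 10.44 and 10.73 FPKM, and the libraries labelled knockout 1 to 3 gave 15.30, 17.79 and 17.04 FPKM. The groups did not overlap, and the lowest library labelled knockout stood well above the highest control. Klf11 rose by a log2 change of 0.68 ± 0.10 SE on the log2(FPKM + 1) scale, where changes of low genes appear smaller than they are (limma adjusted p = 0.0112, 95% interval 0.46 to 0.90), and its mean level was 1.66-fold higher. Between 1010 and 2051 reads lay behind each value. The call was lost without the library labelled knockout 2 (adjusted p = 0.0593), without the library labelled knockout 3 (0.0563) and with no filter on low values (0.11), while the log2 change stayed between 0.61 and 0.91 over all alternatives. Of all 12555 tested genes, 1.56% were called, and 1 call among 7 members is a result about Klf11 alone. Over all genes 71 (0.566%) were higher and 125 (0.996%) lower.

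The other Sin3-recruiting members did not pass the test. Klf13 (ENSMUSG00000052040, chromosome 7, 63886351 to 63938915, minus strand), known as an activator of Ccl5 late in T cell activation, was read at 7.54, 7.55 and 8.58 FPKM in controls, against 5.92, 6.04 and 5.27 FPKM in the libraries labelled knockout. Every library labelled knockout lay below every control, with a log2 change of -0.40 ± 0.10 SE (limma adjusted p = 0.106, 95% interval -0.63 to -0.16) and 1022 to 1470 reads behind a value. The ratio of Klf11 to Klf13 FPKM thus stood at 1.28 ± 0.0976 in controls and 2.92 ± 0.325 in the libraries labelled knockout (exact two-sided permutation p = 0.1, the smallest possible). Both genes had groups apart, in opposite directions, so the ratio had to separate and this p adds no support. Klf16 (ENSMUSG00000035397, chromosome 10, 80567124 to 80577321), a repressor first described at dopamine receptor promoters, was read at 7.87, 6.30 and 4.68 FPKM and at 7.77, 6.93 and 6.79 FPKM. Its control libraries span the whole range of the others (log2 change 0.19, 95% interval -0.17 to 0.54, adjusted p = 0.606). Summed, the 3 Sin3-recruiting members gave 24.23 ± 0.212 FPKM in controls and 29.62 ± 0.992 FPKM in the libraries labelled knockout. The higher sum reflects Klf11, since Klf13 was lower and Klf16 overlapped, and is no rise of the class.

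Among the activators, Klf6 had the highest level and Klf5 the largest fitted change of those tested. Klf6 (ENSMUSG00000000078, chromosome 13, 5861482 to 5870394), a widely expressed factor induced by tissue injury, was read at 12.01, 12.30 and 11.67 FPKM in controls against 12.12, 12.80 and 13.29 FPKM in the libraries labelled knockout. The groups overlapped, and its coefficient of variation within a group was 2.63% and 4.61%, the smallest of the 10 members in each group. Its log2 change was 0.08 with a 95% interval from -0.11 to 0.26 (limma adjusted p = 0.685), an interval that ends below that of Klf11. Klf5 (ENSMUSG00000005148, chromosome 14, 99298691 to 99315036), best known from the proliferating cells of the gut and required for normal homing of stem cells, was read at 1.21, 0.96 and 1.69 FPKM in controls. The libraries labelled knockout gave 2.03, 2.03 and 2.37 FPKM, above each control. Its log2 change of 0.47 ± 0.17 SE did not pass the test (limma adjusted p = 0.210, 95% interval 0.09 to 0.85), with 115 to 326 reads behind a value.

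The other activators were low. Klf2 (ENSMUSG00000055148, chromosome 8, 72319033 to 72321656), the shear-stress factor of endothelium, was read at 0.92, 0.63 and 0.55 FPKM in controls against 1.02, 1.06 and 0.65 FPKM in the libraries labelled knockout. These values rest on 23 to 58 reads, and the groups overlapped (exact two-sided permutation p = 0.2). Klf7 (ENSMUSG00000025959, chromosome 1, 64029447 to 64122282), known from axon growth in neurons, was read at 0.81, 0.81 and 0.57 FPKM and at 0.40, 0.61 and 0.70 FPKM, again with overlapping groups (exact two-sided permutation p = 0.3). Klf4 (ENSMUSG00000003032, chromosome 4, 55527143 to 55532466), one of the factors that reprogramme fibroblasts to pluripotency, was read at 0.13, 0.09 and 0.07 FPKM and at 0.12, 0.10 and 0.05 FPKM. That is between 4 and 11 reads of the whole library, where 3 reads would be 0.0319 to 0.0433 FPKM, and no difference was detectable at this depth (exact two-sided permutation p = 0.9). These read numbers cover counting error only, since PCR copies without molecular identifiers are not independent molecules. When limma was run with no filter, the 95% intervals of the log2 change were -0.32 to 0.65 for Klf2, -0.59 to 0.31 for Klf7 and -0.12 to 0.11 for Klf4.

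The CtBP-recruiting repressors gave no call. Klf3 (ENSMUSG00000029178, chromosome 5, 64803388 to 64832901), a target of Klf1 in red cell precursors, was read at 5.52, 5.01 and 4.63 FPKM in controls against 5.40, 3.95 and 5.13 FPKM in the libraries labelled knockout (log2 change -0.06, 95% interval -0.36 to 0.24, limma adjusted p = 0.870). Klf12 (ENSMUSG00000072294, chromosome 14, 99870632 to 100284679), first described as a repressor of the AP-2 alpha gene, was read at 5.17, 5.39 and 3.30 FPKM and at 2.89, 5.32 and 4.54 FPKM. In each group 1 library of Klf12 lay apart, control 3 and the library labelled knockout 1, so that its interval is wide (-0.58 to 0.37, adjusted p = 0.858). The sign of neither gene was stable when a library was left out. Klf3 had a log2 change of 0.05 without the library labelled knockout 2, and Klf12 one of 0.10 without the library labelled knockout 1. After rescaling to TPM they had 0.12 and 0.07, but the median of all genes of the first fit moved to 0.21. Relative to that median Klf3 and Klf12 stood at -0.09 and -0.14, against -0.075 and -0.12 as first fitted. Reads could not be assigned to a strand: 404 exon bases of Klf3 are shared with the opposite-strand gene Gm20033, which reached at most 0.51 FPKM, and 4 bases of Klf7 with Gm13748. No exon of the other 8 members overlaps that of another gene in the table.

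Read across the 7 tested members, 3 had groups that did not overlap (Klf5, Klf11 and Klf13), and 22.8% of all tested genes did the same. The same 3 had an unadjusted limma p below 0.05, which 16.4% of all tested genes reached. The median log2 change was 0.08 over the 7 and 0.01 over all tested genes. Rescaling each library to a total of 1000000 (TPM) moved the median of the same genes to 0.21, and 94.0% of all calls were then higher in place of 36.2%. Under TPM 2 of 9 tested members were called, Klf11 (log2 change 0.91, adjusted p = 0.00455) and Klf5 (0.79, adjusted p = 0.0413), where 14.0% of all genes were called. Relative to the shifted median these changes were 0.70 and 0.58, against 0.67 and 0.46 as first fitted, and that of Klf13 was -0.45 against -0.41.

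**Figure D2:**
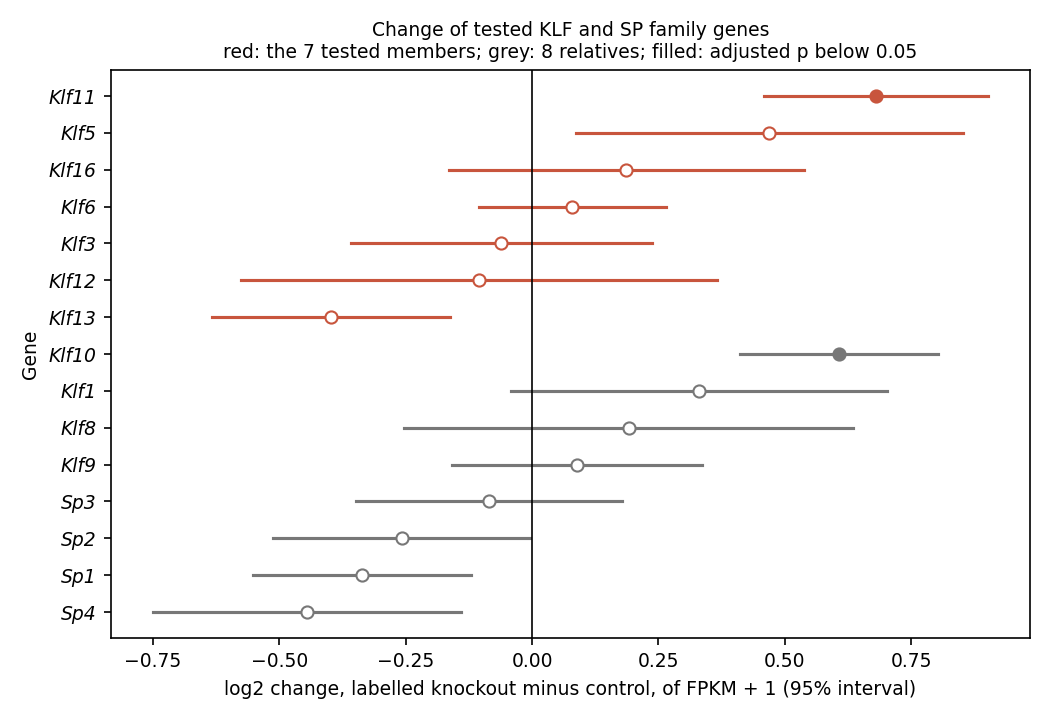
Log2 change with its 95% interval for the 7 tested members (red) and the 8 tested relatives of the KLF and SP family (grey), each sorted by size; filled points passed an adjusted p of 0.05. Klf11 (0.68) and Klf10 (0.61) are filled, and the intervals of Klf5, Klf13, Sp1, Sp2 and Sp4 leave out 0 without passing the adjusted test.

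The remaining family was taken as 16 genes, of which 8 were tested, 1 rose and 0 fell (over all tested genes 0.566% and 0.996%), with a median log2 change of 0.00. Klf10, the closest relative of Klf11 and induced early by TGF-beta, stood at 67.1 ± 7.41 FPKM in controls and rose to 102 ± 5.13 FPKM (limma adjusted p = 0.0112), a call lost without the library labelled knockout 2 (adjusted p = 0.0502), with no filter (0.132) and without the variance trend (0.0619). The ratio of Klf11 to Klf10 FPKM was 0.150 ± 0.0124 in controls and 0.164 ± 0.0192 in the libraries labelled knockout (exact two-sided permutation p = 0.3; the smallest possible is 0.1), a difference within the spread of the libraries. Of the SP factors, which compete for the same GC boxes, Sp1 stood at 12.3 ± 0.988 and 9.56 ± 0.645 FPKM (adjusted p = 0.129) and Sp4 at 4.14 ± 0.552 and 2.77 ± 0.275 FPKM (adjusted p = 0.148), both without overlap of the groups. Sp2 stood at 12.9 ± 1.80 and 10.6 ± 0.726 FPKM (adjusted p = 0.297) with overlapping groups. The 8 relatives that were not tested stayed below 1 FPKM in every library, with Sp5 and Sp6 listed at 0.

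Genes that feed into the family or turn its proteins over gave no call. The 16 such genes include the MEF2 factors and kinases above Klf2 and the ubiquitin ligases of Klf2, Klf4 and Klf5. Of the 16, 0 passed limma's test and 0 reached an unadjusted p below 0.05 (over all tested genes 1.56% and 16.4%), with a median log2 change of 0.03. The 4 with the smallest p were Foxo3, a factor of stem cell quiescence (8.18 ± 0.802 and 6.84 ± 0.712 FPKM, adjusted p = 0.358), Fzr1, an activator of the anaphase-promoting complex (21.8 ± 0.724 and 24.09 ± 0.424 FPKM, 0.362), and the ubiquitin ligase subunits Fbxo32 (2.95 ± 0.666 and 2.21 ± 0.240 FPKM, 0.420) and Fbxw7 (3.81 ± 0.147 and 3.08 ± 0.815 FPKM, 0.464). Of 13 corepressors and coactivators 0 passed limma's test and 2 reached an unadjusted p below 0.05 (again against 1.56% and 16.4%), with a median log2 change of -0.04. These were the acetyltransferase gene Kat2a (51.4 ± 3.04 and 63.3 ± 1.38 FPKM, adjusted p = 0.0781) and Fhl3, a LIM-domain partner of Klf3 (1.76 ± 0.266 and 0.983 ± 0.272 FPKM, adjusted p = 0.218). Sin3a, the corepressor that Klf11 and Klf13 recruit, stood at 16.7 ± 0.694 and 14.99 ± 0.472 FPKM (adjusted p = 0.404). Ep300, a coactivator acetyltransferase, stood at 6.45 ± 0.978 and 5.27 ± 0.795 FPKM (adjusted p = 0.409).

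Of the genes known as targets of the members in other cells, 24 are given here and 18 of them were tested. Of the 18, 0 passed limma's test and 3 had an unadjusted p below 0.05, against 1.56% and 16.4% of all tested genes. Ccnd1, the cyclin D1 gene, stood at 6.68 ± 0.715 and 5.04 ± 0.359 FPKM (adjusted p = 0.174), Rab5b, an endosomal GTPase gene, at 20.9 ± 1.36 and 18.0 ± 0.681 FPKM (0.245), and C1qtnf12, an adipokine gene repressed by Klf3, at 38.9 ± 5.52 and 47.5 ± 3.52 FPKM (0.201). Cdkn1b, which encodes a cell cycle inhibitor, stood at 2.33 ± 0.246 and 1.65 ± 0.211 FPKM (adjusted p = 0.316), with every library labelled knockout below every control. The median log2 change of the 18 was -0.10, with 5 above and 13 below 0, where all tested genes had 6704 above and 5851 below.

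**Figure D3:**
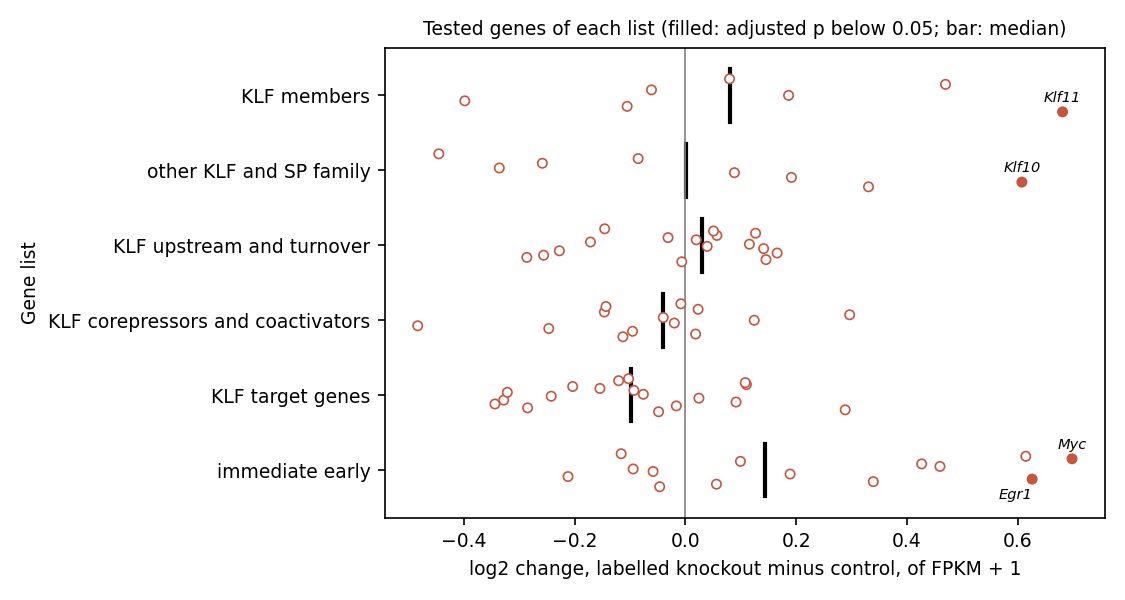
Log2 change of the tested genes given here from the list of 10 members and 5 related lists; each point is a gene, filled where the adjusted p is below 0.05, and bars are list medians. The filled points are Klf11, Klf10, Myc and Egr1, and the medians lie between -0.10 for target genes and 0.14 for immediate early genes.

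Several Kruppel-like factors respond early to growth factors and cell handling, so the immediate early genes were read beside them. Of 19 in the table, 14 were tested, 2 rose and 0 fell (over all tested genes 0.566% and 0.996%), with a median log2 change of 0.14. Of the 14, 7 had an unadjusted p below 0.05, which 16.4% of all tested genes reached. Myc rose from 249 ± 24.1 to 403 ± 18.3 FPKM (limma adjusted p = 0.00446; 0.108 with no filter, the single alternative that lost the call). Egr1 rose from 10.5 ± 1.24 to 16.7 ± 1.76 FPKM (adjusted p = 0.0286), and lost its call in 5 of 6 fits with a library left out, all but that without control 1 (adjusted p up to 0.104), with no filter and without the variance trend. Dusp2, a MAP kinase phosphatase gene, stood at 42.8 ± 2.19 and 54.6 ± 6.81 FPKM (adjusted p = 0.118), and Junb, an AP-1 subunit gene, at 16.8 ± 2.05 and 23.1 ± 4.55 FPKM (0.163). The summed level of this list lay between 489.87 and 555.76 FPKM in controls and between 697.17 and 741.56 FPKM in the libraries labelled knockout. The groups thus differed in the same direction as for Klf11, while within a group the libraries did not follow the order of Klf11. Myc made up 46.0 to 58.6% of this sum, and without Myc it lay between 264.64 and 282.30 FPKM in controls and between 297.05 and 354.79 FPKM in the libraries labelled knockout. The part of these genes in the result was not tested.

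Of the marker lists of other cells, those for erythroid cells, megakaryocytes and B cells had sums that did not overlap between the groups, and in each the gap lay mainly in 1 gene. Of 8 erythroid markers 4 were tested and 1, the beta-globin gene Hbb-bt, fell (limma adjusted p = 0.00247; 0.0874 with no filter), with the reservation that reads may be split with its near copy Hbb-bs. Of the 8, 2 stayed below 1 FPKM in every library, Slc4a1 reached at most 0.03 FPKM, and 0 were at 0 throughout. They summed to between 23.84 and 32.96 FPKM in controls and between 11.31 and 15.10 FPKM in the libraries labelled knockout, and without Hbb-bt to between 11.70 and 12.98 and between 7.77 and 10.67 FPKM. Of 7 megakaryocyte markers 6 were tested and 0 called, the seventh, Gp6, reached at most 0.07 FPKM, and 0 were at 0 throughout. They summed to between 372.99 and 473.46 FPKM and between 255.09 and 361.06 FPKM. Pf4, the platelet factor 4 gene, was the largest of them at 315 ± 42.3 and 189 ± 48.4 FPKM (adjusted p = 0.0594), and without it the sums were 103.16 to 121.41 and 95.98 to 116.01 FPKM. Their part in the rise of Klf11 was not tested. The sums of the other lists, stem cell (755.28 to 846.33 and 747.38 to 837.95 FPKM), monocyte (365.86 to 407.87 and 343.04 to 373.98), neutrophil (71.15 to 97.23 and 61.32 to 72.76), T and natural killer cell (7.75 to 8.80 and 8.12 to 8.26), endothelial (63.65 to 79.83 and 71.11 to 79.93) and stromal (2.69 to 5.09 and 3.29 to 4.11), overlapped between the groups. B cell marker sums (28.92 to 31.13 and 24.25 to 27.76 FPKM) did not, and Cd79b made up 90.9 to 95.9% of them; without it they overlapped. Without Lyz2, which made up 93.8 to 96.0% of the monocyte sum, the sum of the other monocyte markers was 22.43 to 24.79 FPKM in controls and 15.08 to 19.56 FPKM in the libraries labelled knockout, with 0 of them called.

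By a rule set for the member with the smallest p and the member with the highest mean, both of which are Klf11, the 3 named genes most like it were sought over the 6 libraries. These were Mir155hg, the host gene of the microRNA miR-155, with Pearson's r = 0.993, Ldah, a lipid droplet hydrolase gene, with r = 0.992, and Nolc1, a nucleolar phosphoprotein gene, with r = 0.992 (log2(FPKM + 1), n = 6). The 6 libraries hold both groups, so a shared difference between groups is part of each r. Mir155hg stood at 4.85 ± 0.372 FPKM in controls and rose to 7.81 ± 0.876 FPKM (limma adjusted p = 0.0401), a call that was lost whichever 1 of the 6 libraries was dropped (adjusted p from 0.0519 to 0.147), as well as with no filter and without the variance trend. Ldah stood at 10.5 ± 0.133 and 12.4 ± 0.316 FPKM (adjusted p = 0.217) and Nolc1 at 42.6 ± 1.80 and 51.3 ± 2.46 FPKM (0.113), and both were called under TPM (0.0231 and 0.0102).

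**Figure D4:**
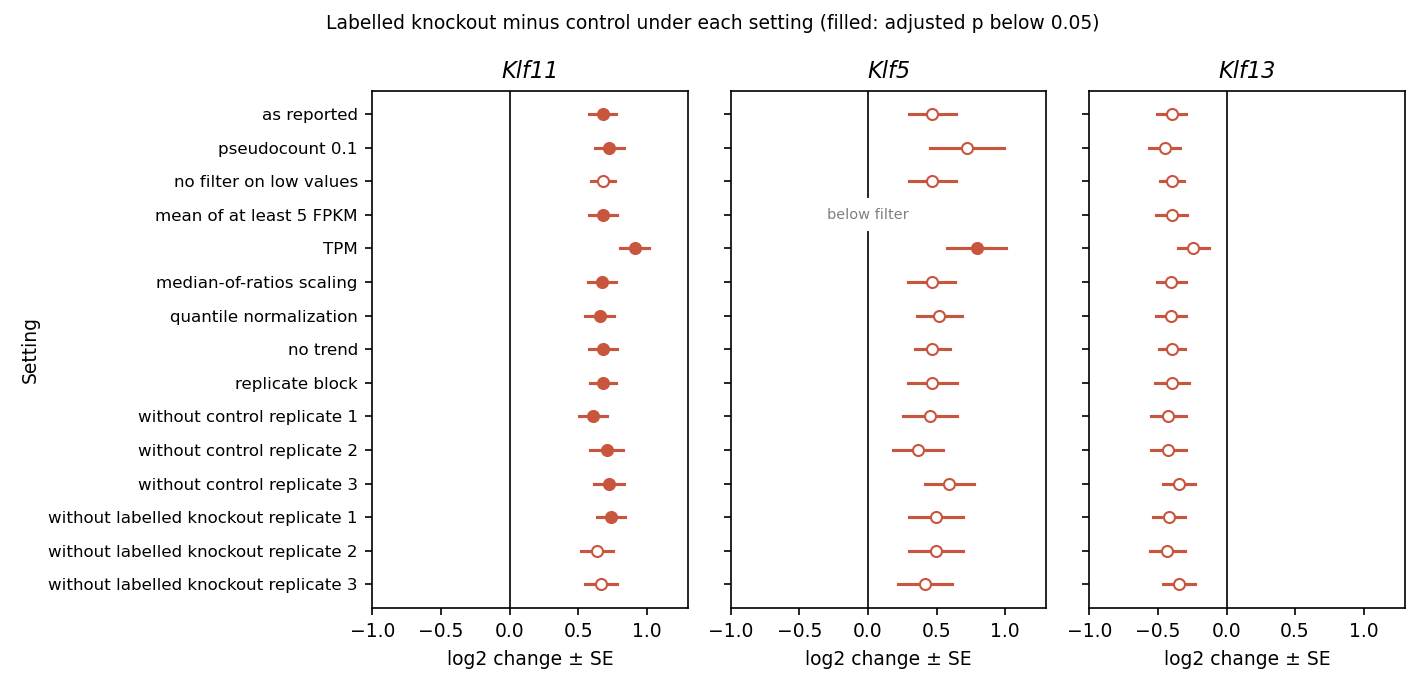
Log2 change ± SE of Klf11, Klf5 and Klf13 as reported and under each alternative; filled points passed an adjusted p of 0.05, and Klf5 was below the filter of a mean of 5 FPKM. All points of Klf11 and Klf5 lie above 0 and all of Klf13 below, Klf11 is open in 3 alternatives, Klf5 is filled under TPM alone and Klf13 is open throughout.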

How the data were processed

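RNA was sequenced from sorted stem cells in 6 libraries, made per the labels' protocols from 2 ng of total RNA with a SMART-Seq v4 kit for ultra low input, which primes on poly(A) and does not mark strand. The deposited values are FPKM, made by the authors; STAR, edgeR, FastQC 0.11.5 and the builds mm10 and GRCm38 appear in the submitters' processing notes. The annotation and the counting rules were not given in the sources used here. All 52183 identifiers matched GENCODE M21, from which positions and exon lengths were taken. Depth was the read number that made values of genes of up to 400 bp whole within 0.1 read (at least 99.45% of values below 20 reads in each library). Libraries of a group differed by 7.56 to 13.9 in chi-square per degree of freedom, so none was a copy.

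FPKM are not counts, so log2(FPKM + 1) was fitted with limma 3.58.1 in R 4.3.3 (lmFit, eBayes with trend, two-sided) on the 12555 genes that reached 1 FPKM in at least 3 libraries, with the group as the single term and Benjamini-Hochberg adjustment over all of them at 0.05. The fit was tested on simulated data. Single values were compared by exact permutation tests. Named genes were all members, Thbs1, called genes and up to 4 genes with the smallest p of each list that holds no cell type markers, and the 3 genes most like a member; marker genes, outside that rule, were named after their values were seen, for the cells they define, for a call (Ly6a, Hbb-bt) or for their level. Members and lists were chosen with earlier results of these data known. From the list of target genes 1 gene is not reported here, and the counts, median and plot of that list leave it out. Alternatives were no filter on low values, a filter at a mean of 5 FPKM, a pseudocount of 0.1, TPM, median-of-ratios scaling, quantile normalization, no trend, a replicate block and leaving out each library.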

Additional observations from a re-analysis of the deposited data

How the results depend on the processing

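Over the alternatives the 7 tested members gave 95 refitted changes, of which 87 kept their direction and their side of the threshold, 3 lost the call (all Klf11), 1 gained it (Klf5 under TPM) and 4 changed sign. Under TPM the log2 changes of Klf3, Klf12 and Sin3a turned to 0.12, 0.0655 and 0.0499, all below the shifted median of 0.21. With a library left out, Klf3 ranged from -0.1335 to 0.0519 (highest without the library labelled knockout 2) and Klf12 from -0.2873 to 0.0964 (highest without the library labelled knockout 1), none of them past the threshold. With no filter on low values, 35246 genes were tested in place of 12555, and calls came to 0 members, 24 of all genes and 0 in the lists of other family members and immediate early genes. TPM gave 2 members, 2144 of all genes, 1 upstream gene, 3 corepressors and coactivators, 1 target gene and 5 immediate early genes. Without the variance trend there were 89 calls over all genes, 0 other family members and 1 immediate early gene. Leaving out each library gave 0 to 1 member, 59 to 106 of all genes, 0 to 1 other family member and 1 to 2 immediate early genes, with fewer samples in each fit. The cause of the other changes was not tested.

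With the replicate block there were 81 calls over all genes in place of 196, and 1 immediate early gene in place of 2; Klf11 kept its call (adjusted p = 0.0253), and Egr1 (0.0721), Ly6a (0.0782) and Mir155hg (0.0854) lost theirs. Libraries with the same number share only that number: deviations from the group means correlated at -0.11, 0.04 and -0.08 across genes for numbers 1 to 3, and 1 of 6 libraries correlated best with its own number. For Klf4 and Klf2, depth limits what can be seen.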
